A study of Mus musculus with 10 samples.

Results

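The insulin-like growth factor (IGF) axis was followed through 10 genes in primary cultures of mouse tongue epithelium: the binding proteins Igfbp2, Igfbp3, Igfbp4, Igfbp6 and Igfbp7, the receptors Igf1r, Igf2r and Insr, and the adaptors Irs1 and Irs2. They were picked by symbol with results of these data known, and Igfbp2 had the lowest EY minus N difference of the 198 genes called lower in EY. Of the 10 symbols, 9 had a row among the 18586 rows of the deposited table of TPM, a transcript level scaled by length and library total, and Igfbp6 had none. Every row was above 0 in at least 6 libraries, and 57 rows were at 0 in all N libraries. A gene at 0 in all EY libraries thus had no row, whatever its level in N. Whether the authors filtered the rows is not stated, and a missing row does not show that a gene was silent. At least 1 TPM in at least 4 libraries was required of a gene for a test. Igfbp2, Igfbp3, Igfbp7, Igf1r, Igf2r and Irs2 passed this filter, and Igfbp4, Insr and Irs1 did not.

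Both genotypes carried Krt14-CreERT, LSL-rtTA and tetON_H2B-GFP, so that Cre in Krt14-expressing basal cells switches on a transactivator that drives a green nuclear reporter in the presence of doxycycline. EY cells carried in addition tetON_E6-E7, the human papillomavirus oncogenes, and tetON_YAP1S127A, a YAP1 mutant that escapes inhibitory phosphorylation. N cells carried neither effector. Cells had been taken 15 days after induction, sorted for the reporter and cultured on collagen with doxycycline, EGF and cholera toxin. The 6 EY libraries came in pairs from lines EY3960, EY4028 and EY4174, and 4 N libraries came from line N4172 alone, so genotype and line cannot be told apart. Nothing states that libraries of 1 line were separate cultures, and p-values measure only the spread between libraries, which may be technical. Whether the medium supplements held insulin or IGF is not given in the sources used here.

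IGF ligands bind the IGF type 1 receptor, a tyrosine kinase that shares its adaptors with the insulin receptor and signals through PI3K, AKT and mTOR. Secreted IGF binding proteins hold the ligands outside the cell and can either withhold or deliver them, while the type 2 receptor carries IGF2 to the lysosome. In epidermis and other stratified epithelia this axis is known as a survival and growth signal for basal keratinocytes.

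Upstream sequences of the 3 binding proteins with abundant transcripts are shown because the 16.6-fold difference of Igfbp2 sat beside much smaller ones of Igfbp3 and Igfbp7. Each is the 250 bases before a RefSeq transcript start on GRCm38.p6, given on the gene's strand. Igfbp2 had 2 listed windows, and only the first listed is shown and described. Capitals mark GC boxes, the letters GGGCGG on either strand. The Igfbp2 window is chr1:72824230-72824479 on the plus strand, the Igfbp3 window chr11:7213924-7214173 on the minus strand and the Igfbp7 window chr5:77408046-77408295 on the minus strand.
Igfbp2: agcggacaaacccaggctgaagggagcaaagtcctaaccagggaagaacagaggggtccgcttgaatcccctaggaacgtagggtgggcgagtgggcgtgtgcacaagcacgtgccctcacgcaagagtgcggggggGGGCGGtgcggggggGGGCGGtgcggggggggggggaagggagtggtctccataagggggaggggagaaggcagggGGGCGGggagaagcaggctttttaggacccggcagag
Igfbp3: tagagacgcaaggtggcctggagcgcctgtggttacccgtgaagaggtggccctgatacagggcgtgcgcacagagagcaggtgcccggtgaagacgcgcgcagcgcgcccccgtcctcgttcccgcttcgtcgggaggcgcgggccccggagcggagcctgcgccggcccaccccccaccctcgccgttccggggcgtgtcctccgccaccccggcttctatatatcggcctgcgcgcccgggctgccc
Igfbp7: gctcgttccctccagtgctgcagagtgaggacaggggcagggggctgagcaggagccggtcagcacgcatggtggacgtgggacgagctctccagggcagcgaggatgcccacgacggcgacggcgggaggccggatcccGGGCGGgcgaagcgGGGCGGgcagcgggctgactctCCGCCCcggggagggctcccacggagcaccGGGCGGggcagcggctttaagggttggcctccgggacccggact

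The Igfbp2 window held 3 GC boxes, beginning 113, 98 and 37 bases before the start, and was 67.2% G or C. The Igfbp7 window held 4 GC boxes at 74% G or C, and the Igfbp3 window held none at 73.2%. Among 32851 mouse windows of the same length, 32.7% held a GC box, and the median G or C content was 52.4%. Upstream windows were matched for 9 of the 10 genes, all but Insr, and 6 of the 9 held a GC box. On both strands, the letters GGAATG that TEAD factors, the DNA-binding partners of YAP1, recognise were found in 1 of the 9 windows, that of Irs1, against 12.6% of all windows. The AP-1 letters TGANTCA and the FoxO letters GTAAACA were in none of the 9, against 6.75% and 3.17% of all windows. The TATA box letters TATAAA, counted on either strand and anywhere in the window, were in those of Igfbp4 and Igfbp6, against 12.4% of all. In Igfbp4 they lay on the gene's strand and in Igfbp6 on the opposite strand, so the latter match is to the letters alone. Matches were counted whether or not they overlapped another motif, and a missing match says only that the letters are not in these bases.

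Between 10852 and 11522 rows reached 1 TPM in a library, and mitochondrial transcripts made up 14.1% to 20.5%. All 8 keratinocyte markers passed the filter, and their summed level was 4255 to 7219 TPM in EY and 5262 to 5990 TPM in N. Krt5 and Krt14 carried most of that sum, and single markers differed between genotypes along with Igfbp2: Krt15 averaged 25.3 TPM in EY and 84.3 TPM in N, and Trp63 53.0 and 79.9 TPM, with all EY libraries below all N libraries. Epcam averaged 58.8 and 33.0 TPM, with all EY libraries above all N libraries. The part of these markers in the differences reported here was not tested. Yap1, the mouse gene, was at 34.7 to 57.1 TPM in EY and 17.2 to 20.9 TPM in N. The EY transgene carries a mutant YAP1, for which the paper lists transgene-specific primers named as human. Whether transgene reads were counted in the Yap1 row is not given in the sources used here. Read depth was unknown because only TPM were at hand. Limma on log2(TPM + 1) called 413 of 11630 genes (3.55%) for the EY minus N difference at an adjusted p under 0.01 and a log2 difference beyond 1, with 215 (1.85%) higher and 198 (1.7%) lower in EY. Genes at 0 in all EY libraries had no row, so they are missing from the lower calls and from the rank of Igfbp2 among them.

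Igfbp2, a secreted binding protein with a high affinity for IGF2, stood at 341, 312, 334 and 242 TPM in the 4 N libraries. It stood at 4.97 and 4.82 TPM in line EY3960. Line EY4028 gave 24.1 and 26.7 TPM, and line EY4174 gave 22.7 and 28.0 TPM. Every EY library was thus far below every N library, and EY3960 was lower than the other EY lines. N averaged 307 ± 45 TPM (SD, n = 4), and EY 18.6 ± 10.7 TPM (SD, n = 6), a ratio of 16.6. On the log2(TPM + 1) scale the difference was -4.26 (SE 0.55). Because Igfbp2 was chosen on this contrast, the difference is given as a description with no test.

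Set against N, the ratio depended on the line. N exceeded EY3960 by 62.7 times, EY4028 by 12.1 times and EY4174 by 12.1 times. Leaving out line EY3960 moved the log2 difference to -3.54. In each N library Igfbp2 ranked between 341 and 504 among the 18586 rows by TPM. It ranked between 3209 and 3913 in lines EY4028 and EY4174, and between 7840 and 8233 in EY3960. In bulk libraries, fewer cells that express a gene and less RNA per cell cannot be told apart.

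**Figure D1:**
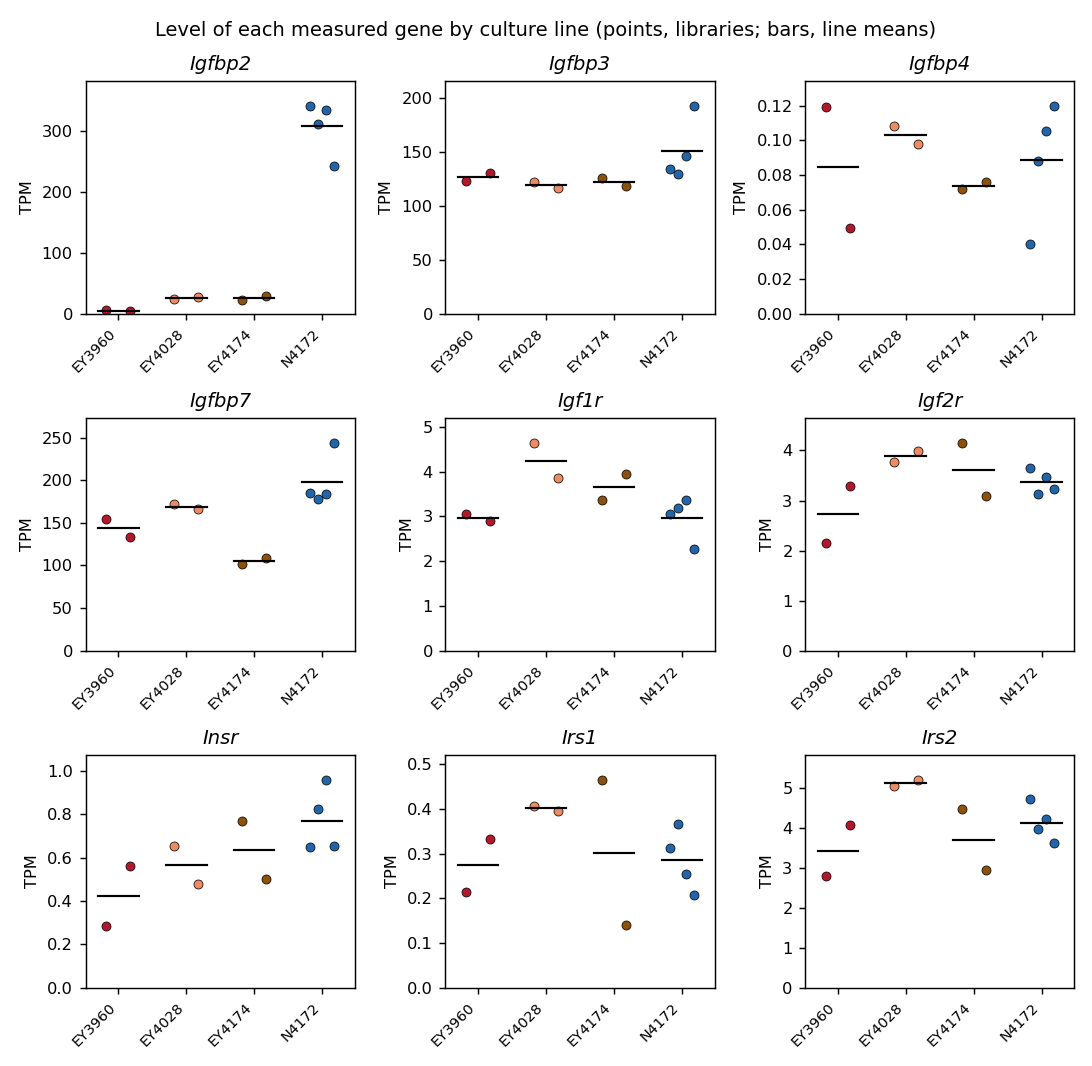
Level in TPM (vertical axes, from 0 and scaled per gene) of the 9 measured genes in each library, by culture line; points are libraries and bars line means. Igfbp2 lies at 242 to 341 TPM in the 4 N4172 libraries and at 4.82 to 28.0 TPM in the 6 EY libraries, while the N mean of every other gene is under 2 times its EY mean.

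Igfbp3, the main carrier of IGFs in serum, was at 123 and 130 TPM in EY3960, 122 and 116 TPM in EY4028, and 125 and 118 TPM in EY4174. The N libraries gave 134, 130, 146 and 193 TPM. The groups overlapped narrowly, with the lowest N library at 129.7 TPM and the highest EY library at 130.1 TPM. N averaged 151 ± 28.7 TPM (SD, n = 4), and EY 122 ± 4.99 TPM (SD, n = 6), a log2 difference of -0.28 (SE 0.10). Much of it came from N replicate 4, the library at 193 TPM, without which the difference was -0.16.

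Igfbp7, which binds IGFs weakly and is secreted into the matrix, was at 155 and 134 TPM in EY3960, 172 and 166 TPM in EY4028, and 101 and 109 TPM in EY4174. The N libraries gave 185, 178, 183 and 243 TPM, all above the EY libraries. N averaged 197 ± 30.8 TPM (SD, n = 4), and EY 139 ± 29.7 TPM (SD, n = 6), a log2 difference of -0.52 (SE 0.16). Without line EY4174 the difference was -0.33. Igfbp4, another binding protein, reached no more than 0.12 TPM in any library of either genotype.

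Of the 6 genes that passed the filter, 1, Igfbp2, met the call thresholds between EY and N, beside 3.55% of all genes tested. Igfbp2 and Igfbp7, 2 of the 6, had all EY libraries below all N libraries, beside 9.1% of all genes tested for that direction and 20.4% for either. These counts are descriptions, since the genes were chosen with this contrast in view.

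Summed over Igfbp2, Igfbp3, Igfbp4 and Igfbp7, binding protein transcripts came to 280 ± 28.2 TPM in EY (SD, n = 6), between 249 and 318 TPM. In N the sum was 655 ± 25.2 TPM (SD, n = 4), between 620 and 678 TPM. Igfbp2 made up 35.7% to 51.6% of the sum in N libraries. It made up 1.78% in EY3960, 8.11% in EY4028 and 10.1% in EY4174 (means of the line's libraries). Igfbp3 held 22.9% of the sum in N and 44.1% in EY, and Igfbp7 held 30.1% and 49.2% (group means).

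**Figure D2:**
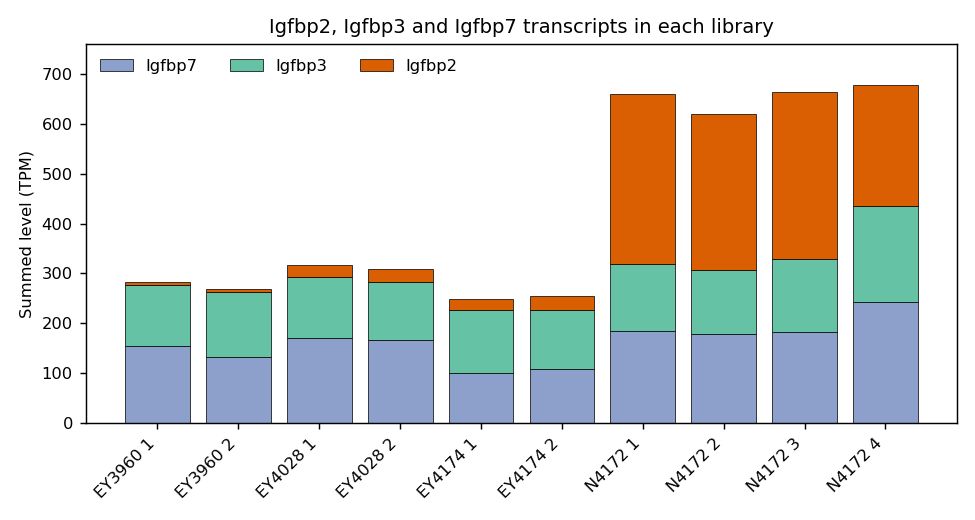
Stacked TPM of Igfbp7, Igfbp3 and Igfbp2 in each library (bars from 0, one per library, named by line and replicate). The Igfbp2 segment is 242 to 341 TPM in the N4172 libraries and 4.82 to 28.0 TPM in the EY libraries, beside 116 to 193 TPM of Igfbp3 and 101 to 243 TPM of Igfbp7.

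The order of the levels, which TPM allow across genes since they are scaled by length, also differed. In N replicates 1 to 3 Igfbp2 was the highest of the 9 genes, ahead of Igfbp7 and Igfbp3. In N replicate 4 Igfbp2 at 242 TPM and Igfbp7 at 243 TPM were level, and Igfbp3 at 193 TPM came next. In the EY3960 and EY4028 libraries Igfbp7 was highest, and Igfbp3 was highest in both EY4174 libraries, at 125 and 118 TPM against 101 and 109 TPM of Igfbp7. Receptors and adaptors were at 5.20 TPM or less in every library. Insr and Irs1 were below Igf1r, Igf2r and Irs2 throughout. In N every Irs2 value (3.63 to 4.72 TPM) was above every Igf1r value (2.26 to 3.36 TPM), whereas the Igf2r range (3.13 to 3.65 TPM) overlapped both, and in EY the ranges of Irs2, Igf1r and Igf2r overlapped.

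Igf1r, the signalling receptor for IGF1 and IGF2, was at 3.05 and 2.89 TPM in EY3960, 4.64 and 3.86 TPM in EY4028, and 3.37 and 3.94 TPM in EY4174. The N libraries gave 3.05, 3.20, 3.36 and 2.26 TPM. The groups overlapped, at a log2 difference of 0.22 (SE 0.14). Igf2r, which clears IGF2 and sorts lysosomal enzymes, ranged from 2.15 to 4.15 TPM in EY (median 3.53) and from 3.13 to 3.65 TPM in N. Its log2 difference was -0.01 (SE 0.14). Insr, the insulin receptor, lay below the filter at 0.283 to 0.770 TPM in EY and 0.650 to 0.956 TPM in N, and these ranges overlapped.

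Irs2, an adaptor that links these receptors to PI3K, ranged from 2.79 to 5.20 TPM in EY and from 3.63 to 4.72 TPM in N. Its log2 difference was -0.03 (SE 0.16), with the N range inside the EY range. Irs1, the related adaptor, lay below the filter at 0.140 to 0.464 TPM in EY and 0.207 to 0.366 TPM in N. The receptors and adaptors that could be compared thus differed between genotypes by no more than 0.22 on the log2(TPM + 1) scale. With a pseudocount of 0.1 the Igf1r difference was 0.28. The signed differences of all genes tested had a median of 0.03, which gives their centre and not their usual size.

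A contrast that was not used to choose the genes asked how far they varied among the EY cultures. By the limma F test over lines, adjusted over 11630 genes, 596 genes (5.12%) were called at an adjusted p under 0.01 and a log2 difference beyond 1 for some pair of lines. Igfbp2 was 1 of them and the only 1 of the 6 genes tested (adjusted p = 6.14e-06). It was higher in EY4028 than in EY3960 by 2.16 on the log2 scale (SE 0.16, 95% interval 1.81 to 2.51, adjusted p = 1.27e-05), in both libraries of the line. By the limma contrasts of single pairs, 1.79% of all genes were called for EY4028 minus EY3960, 4.32% for EY4174 minus EY3960 and 2.4% for EY4174 minus EY4028. EY4174 exceeded EY3960 by 2.15 (SE 0.16, adjusted p = 6.50e-06). Between EY4174 and EY4028 the difference was -0.01 (95% interval -0.36 to 0.35, adjusted p = 0.985).

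Igfbp7 did not reach the thresholds between lines in the limma F test (adjusted p = 0.0175). Its widest difference was -0.68 for EY4174 minus EY4028 (SE 0.14, 95% interval -0.99 to -0.37, adjusted p = 0.0147). Its adjusted p fell to 2.40e-04 when N replicate 4 was left out, within a range of 2.40e-04 to 0.0867 over all alternatives, and its difference stayed under 1. The lowest line was therefore EY3960 for Igfbp2 and EY4174 for Igfbp7. Limma adjusted p over lines were 0.904 for Igfbp3, 0.247 for Igf1r, 0.231 for Igf2r and 0.182 for Irs2. For Igf1r the widest pair was EY4028 minus EY3960, at 0.40 (95% interval 0.01 to 0.78), and for Irs2 the same pair, at 0.48 (0.04 to 0.92).

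Markers moved with the lines as well. Summed keratinocyte markers averaged 4376 TPM in EY3960, 5726 TPM in EY4028 and 6858 TPM in EY4174, and Cd68, a lysosomal protein of macrophages that other cells also make, averaged 70.3, 36.9 and 29.4 TPM. EY3960 was the lowest line by the sum, which Krt5 and Krt14 carried, and the highest by Cd68. Other markers of the list did not follow the sum: Krt15 averaged 35.3, 8.77 and 31.9 TPM in the lines in that order, Itga6 249, 224 and 194 TPM, and Trp63 52.4, 53.4 and 53.3 TPM. The mitochondrial share of EY3960 was 15.2%, against 19.4% in EY4028 and 16.8% in EY4174. The part of these values in the Igfbp2 difference between lines was not tested. Markers of cells that make IGF binding proteins in the tongue stroma were near 0 where they had a row. Of 8 fibroblast markers 3 had a row and none passed the filter. The sums of these 3 were 0.0439 to 0.766 TPM in EY and 0.190 to 0.859 TPM in N. Col1a2, Col3a1, Pdgfrb, Dcn and Lum had no row, so their levels are unknown. Endothelial markers (4 of 5 with a row) summed to no more than 0.697 TPM. Skeletal muscle markers (2 of 4) summed to 0.056 to 0.304 TPM in EY and 0.365 to 0.933 TPM in N. Every N library was thus above every EY library for that sum, and its part in the Igfbp2 difference was not tested. Of 6 immune markers 3 had a row, and without Cd68 their sum was at most 0.394 TPM.

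Beyond the chosen genes, a list of 74 further IGF and insulin pathway genes was set out by role, with 62 in the table and 53 tested. Stc2 and Igf2bp1 were the 2 called higher in EY, Sesn1 and Txnip the 2 called lower, and 49 were not called, beside 3.55% of all genes called in either direction. The Stc2 call is a description, since Stc2 passed the filter through EY alone. With line as a random block, 1 of these 4 calls, that of Txnip, held. The list's median log2 difference was 0.08, against 0.03 over all genes tested. In the list 34 differences were positive and 19 negative, beside 6276 positive and 5354 negative over all genes tested. At an adjusted p under 0.01 without the fold threshold 5 genes passed, against 1377 of 11630. The fifth, named after its values were seen, was Pik3r1, the regulatory subunit of PI3K, at -0.53 (SE 0.12, limma adjusted p = 0.00983).

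**Figure D3:**
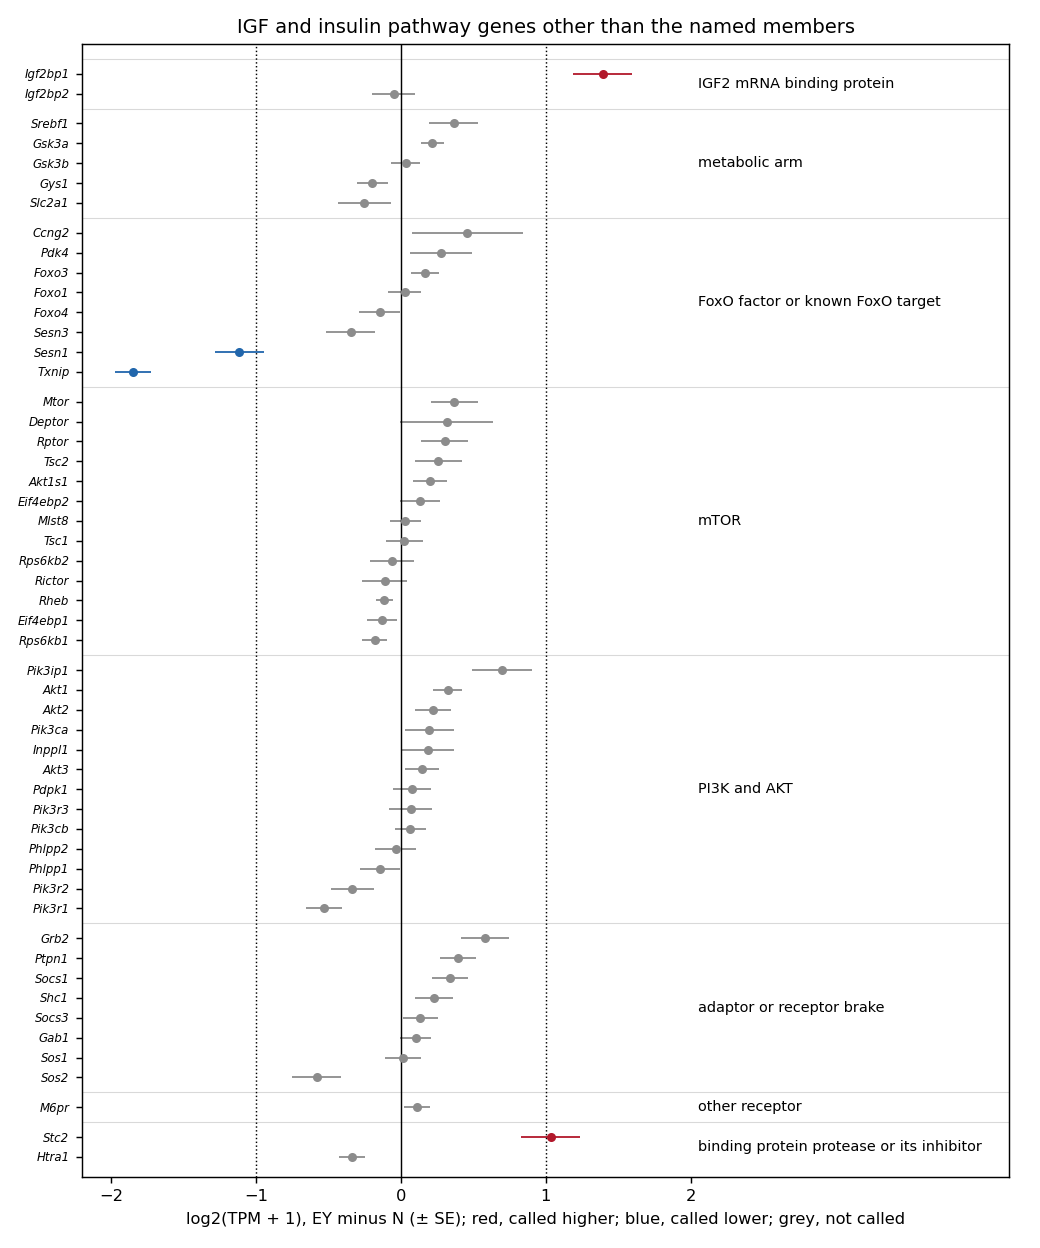
Difference in log2(TPM + 1), EY minus N (horizontal axis, points with SE), for the tested pathway genes but 1 that is not plotted, grouped by role; dotted lines mark differences of 1 in either direction. Igf2bp1 at 1.39 and Stc2 at 1.03 are called higher, Sesn1 at -1.11 and Txnip at -1.85 are called lower, and the other genes plotted are not called. Stc2 passed the filter through EY alone, so its call is a description.

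Of the 4 ligands, Igf2 was the only one with a row, and it lay below the filter. It read 1.65 and 1.05 TPM in EY3960, 0.142 and 0.333 TPM in EY4028, and 0.137 and 0.356 TPM in EY4174. In N it was listed at 0, 0, 0.0234 and 0.0696 TPM. All EY libraries were above all N libraries, beside 20.4% of all genes tested with such a gap in either direction. Igf2 was not among the genes tested, so this is a description. EY3960, the line with the least Igfbp2, had the highest values, and a link between Igf2 and Igfbp2 was not tested. Igf1, Ins1, Ins2 and the binding proteins Igfbp1, Igfbp5, Igfals and Igfbpl1 had no row, so their levels are unknown.

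Among the proteases that cut binding proteins and their inhibitors, Stc2, which blocks the protease PAPP-A, was called higher in EY. It read 0.460 and 2.02 TPM in EY3960, 1.19 and 1.71 TPM in EY4028, and 1.70 and 0.794 TPM in EY4174, against 0.0412 to 0.156 TPM in N. The log2 difference was 1.03 (SE 0.20). Stc2 passed the filter through EY alone, where 4 libraries reached 1 TPM, so its call is a description; without any filter it was called as well (limma adjusted p = 0.0037). Over the 13 alternatives that tested it, limma adjusted p ran from 8.43e-04 to 0.252, and 7 of them lost the call: those without N replicate 1, 2 or 3, quantile normalization (difference 0.97), both blocks and the line means. Without EY3960 replicate 2, EY4028 replicate 1 or 2, or EY4174 replicate 1, it fell below the filter and was not tested, as it did without any 1 of the EY lines or with 1 TPM required in every library. Pappa itself was at 0.00764 TPM or less in EY and 0.0406 to 0.086 TPM in N, below the filter. Htra1, a serine protease, was abundant at 211 TPM in EY and 266 TPM in N (means), a difference of -0.34 that was not called (limma adjusted p = 0.0199).

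None of the 8 tested adaptors and receptor brakes was called. Ptpn1, a phosphatase that acts on the insulin receptor, had a difference of 0.39 (limma adjusted p = 0.0369), and Shc1, an adaptor to RAS, one of 0.23 (limma adjusted p = 0.226). None of the 14 PI3K and AKT genes was called: Akt1, a kinase at the centre of the pathway, had a difference of 0.32 at means of 70.1 TPM in EY and 55.5 TPM in N (limma adjusted p = 0.0341). None of the 13 mTOR genes was called either. Eif4ebp1, the translation repressor that mTOR phosphorylates, was at 146 TPM in EY and 162 TPM in N (limma adjusted p = 0.386), and Rheb, the GTPase that activates mTOR, at 95.4 and 103 TPM (limma adjusted p = 0.183). M6pr, the other mannose 6-phosphate receptor, had a difference of 0.11 (limma adjusted p = 0.390).

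Of 8 tested FoxO factors and genes known as FoxO targets, 2 were called lower in EY and none higher, beside 1.7% of all genes called lower. Txnip, an inhibitor of thioredoxin and of glucose uptake, was at 7.10 and 7.10 TPM in EY3960, 8.17 and 9.11 TPM in EY4028, 9.75 and 8.76 TPM in EY4174, and 28.1, 29.3, 32.5 and 41.1 TPM in N. All EY libraries lay below all N libraries, at a log2 difference of -1.85 (SE 0.13, limma adjusted p = 2.01e-06). Sesn1, a stress protein that restrains mTOR, was at 2.31 and 2.11 TPM in EY3960, 2.97 and 2.53 TPM in EY4028, 4.34 and 4.09 TPM in EY4174, and 6.30, 7.45, 7.95 and 8.84 TPM in N. Its difference was -1.11 (SE 0.17, limma adjusted p = 8.43e-04), and without EY3960 it was -0.96 and no longer past the fold threshold. The Sesn1 call was also lost with line as a random block (limma adjusted p = 0.0186) and with the sample-number block (0.0375), within a range of 9.98e-05 to 0.317 over the alternatives. Foxo1, Foxo3 and Foxo4 had differences of 0.03, 0.17 and -0.15 and were not called. Whether FoxO factors had a part in the Txnip and Sesn1 differences was not tested.

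Ccng2, a cyclin of resting cells and a further FoxO target, was the only pathway gene called between the EY lines (limma F, adjusted p = 1.05e-04), 1 of 53 tested beside 5.12% of all genes. It read 8.85 and 8.60 TPM in EY3960, 3.83 and 3.85 TPM in EY4028, and 1.95 and 1.44 TPM in EY4174, against 2.07 to 3.11 TPM in N. EY3960 was highest and EY4174 lowest, and N lay between EY4174 and EY4028. The difference for EY4174 minus EY3960 was -1.86 (SE 0.17, limma adjusted p = 3.59e-05). Between EY and N Ccng2 was not called (0.46, SE 0.38).

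Igf2bp1, which binds IGF2 and other mRNAs, was at 14.1 and 17.1 TPM in EY3960, 29.1 and 23.6 TPM in EY4028, 30.8 and 22.5 TPM in EY4174, and 8.60, 6.84, 9.59 and 6.44 TPM in N. All EY libraries lay above all N libraries, at a log2 difference of 1.39 (SE 0.20, limma adjusted p = 6.38e-04). The Igf2bp1 call was lost with line as a random block (limma adjusted p = 0.0164) and with the sample-number block (0.0173), within a range of 5.92e-05 to 0.254 over the alternatives. Igf2bp2, its relative, was at 20.5 TPM in EY and 20.9 TPM in N. None of the 5 genes of the metabolic arm was called. Slc2a1, the main glucose transporter of keratinocytes, was at 52.1 and 63.1 TPM, and Gsk3a, a kinase that AKT inhibits, at 28.6 and 24.6 TPM (EY and N means).

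**Figure D4:**
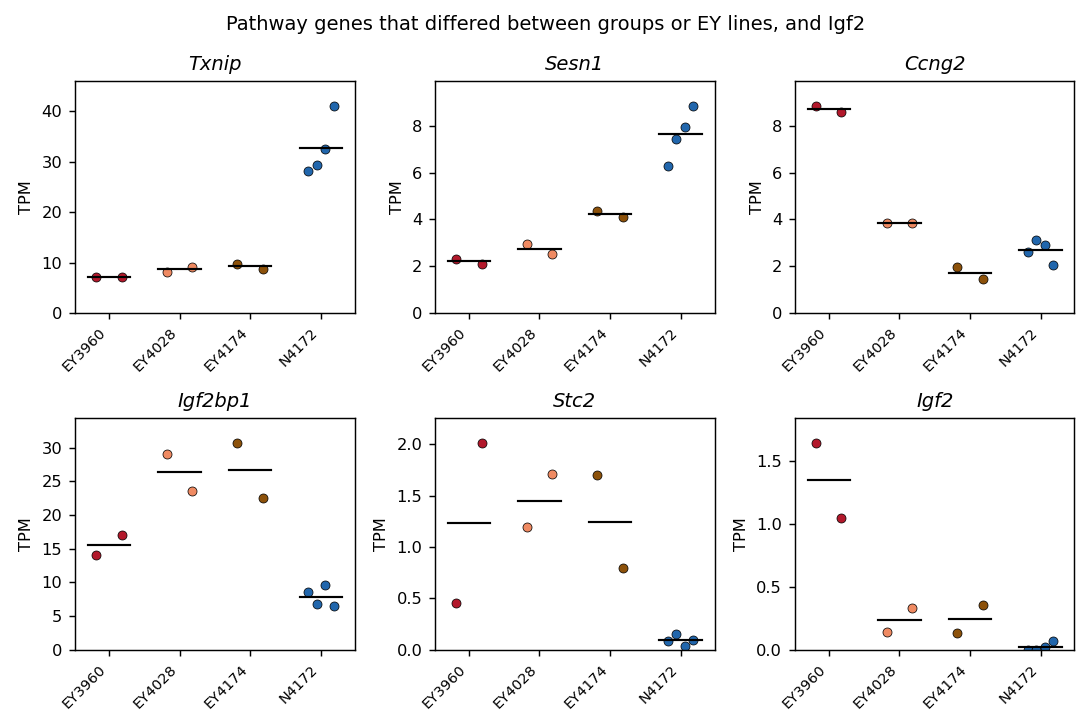
Level in TPM (vertical axes, from 0 and scaled per gene) of the 4 pathway genes called between EY and N, of Ccng2, called between EY lines, and of Igf2, by line; points are libraries and bars line means. Txnip lies at 7.10 to 9.75 TPM in EY and 28.1 to 41.1 TPM in N, and Igf2 reaches 1.65 TPM in EY3960 and at most 0.0696 TPM in N.

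The genes with the pattern most like Igfbp2 were ranked by Pearson's r on log2(TPM + 1) among 7639 genes with a mean of at least 5 TPM. Over all 10 libraries, which share the gap between EY and N, they were Nbdy, Vldlr, Fhl1, Gsta3 and Il15ra, with r from 0.977 to 0.985, and 122 genes had an r of at least 0.9. Gsta3, a glutathione transferase, was at 15.3 and 12.2 TPM in EY3960, 40.2 and 37.6 TPM in EY4028, 23.2 and 23.3 TPM in EY4174, and 130 to 167 TPM in N. Fhl1, a LIM-domain protein, was at 0.661 and 0.55 TPM in EY3960, 2.23 to 3.03 TPM in the other EY libraries and 13.6 to 20.9 TPM in N. Vldlr, a lipoprotein receptor, was at 2.03 to 4.39 TPM in EY and 10.8 to 16.0 TPM in N. Nbdy ranged only from 26.7 to 49.7 TPM, so a high r does not carry a difference of like size.

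Over the 6 EY libraries alone, which share the split of EY3960 from the other lines, the 5 genes were Aunip, Pabpc4, Tspan6, Tmem176b and Calm2, with r from 0.995 to 0.999, and 502 genes had an r of at least 0.9. Against N they went different ways. Calm2, a calmodulin gene, was at 366 to 462 TPM in EY and higher in every N library, at 489 to 517 TPM. Tmem176b was at 59.8 and 62.3 TPM in EY3960 and 115 to 134 TPM in the other EY lines, but at 18.5 to 47.0 TPM in N. Tspan6, a tetraspanin, was at 2.23 and 2.35 TPM in EY3960 and 8.0 to 9.71 TPM in the other EY lines, with N at 7.6 to 9.35 TPM. No gene stood among the highest 5 by both rankings.

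**Figure D5:**
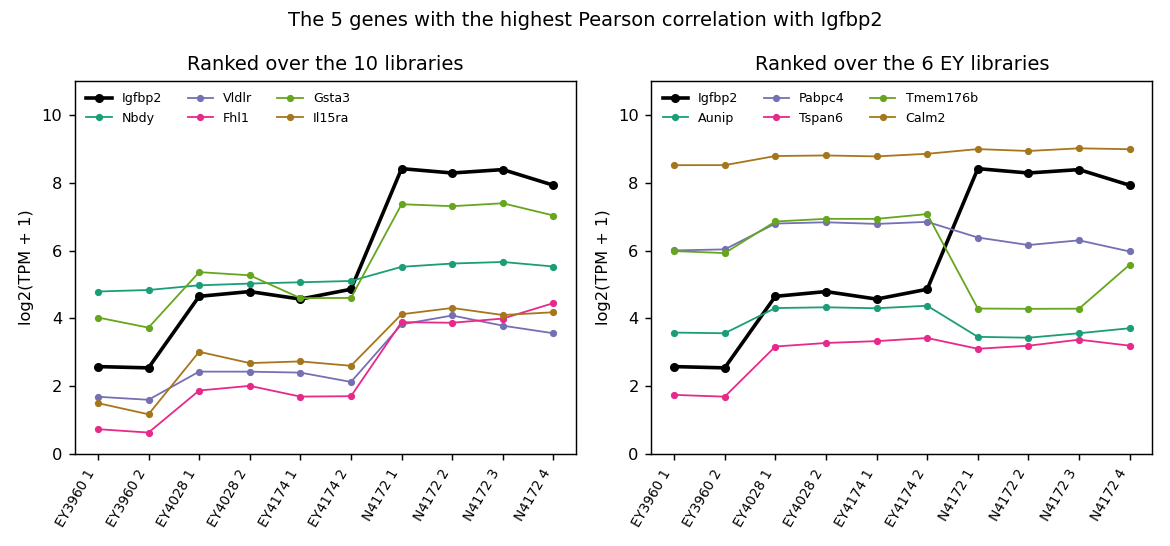
Profiles of Igfbp2 (black) and of the 5 genes with the highest Pearson's r with it over 10 libraries (left) or over the 6 EY libraries (right), as log2(TPM + 1) in each library (horizontal axis, named by line and replicate; the lines only guide the eye). On the left every gene is higher in N4172 than in any EY library, and on the right Tmem176b is lower in every N4172 library than in any EY library.

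Genes that neighbour Igfbp2 in the RefSeq order of GRCm38.p6 were looked up after its values were seen. Of the 4 protein-coding genes on either side, Smarcal1, Rpl37a and Tns1 had a row. Smarcal1, a DNA annealing helicase, was at 5.06 TPM in EY and 5.41 TPM in N, a log2 difference of -0.09 (SE 0.15). Rpl37a, a ribosomal protein gene, was at 2381 and 2620 TPM, a difference of -0.15 (SE 0.09). Tns1 was at 0.169 TPM or less throughout. Igfbp5, the binding protein gene next to Igfbp2, had no row.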

How the data were processed

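Poly(A) RNA of 10 primary tongue epithelial culture libraries, taken 15 days after induction, had been sequenced as described in the methods and labels. The deposited table holds TPM, which the authors computed: reads per transcript length, scaled within each library. For differential expression the authors used STAR 2.7.9 on GRCm39, SAMtools 1.7, HTSeq 0.13.5 and DESeq2 1.34.0, and for enrichment they used Kallisto TPM against a human transcriptome with the highest transcript per gene. Which step made the table is not given in the sources used here, so no coordinates were given to its rows. Since the values are not counts, no count model was run. Depth is unknown, and no counting interval could be given.

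Genes that reached 1 TPM in 4 or more libraries were tested with limma 3.58.1 (trend and robust options) in R 4.3.3 on log2(TPM + 1), which understates changes of low genes, with Benjamini-Hochberg adjustment over all 11630 genes. The EY against N fit used genotype alone, and the fit between EY lines used 4 line means. Both were tested on simulated data with known changes. For the genotype fit the simulated EY lines did not differ from each other, unlike the real ones, so that check does not cover line effects. The 10 genes, the pathway and marker lists and the tests were chosen with earlier results of these data known. All 10 genes are named, as are pathway genes called in either fit and otherwise the 2 with the highest mean TPM of each role; the 5 genes most like Igfbp2 follow in each ranking, leaving out predicted genes and pseudogenes. A pathway gene that this rule names is not reported here. RefSeq windows of GRCm38.p6 gave the upstream bases. No 2 libraries held identical values. Alternatives were another pseudocount, other filters, quantile normalization, removal of mitochondrial genes, leaving out libraries or lines, blocks by sample number or line, line means, and EY libraries alone.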

Additional observations from a re-analysis of the deposited data

Results flagged for a closer look

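N replicate 4 stood apart from the other N libraries for Igfbp7, at 243 TPM against 185 TPM for the nearest, and for Tmem176b, at 47.0 TPM against 18.6 TPM. These were 2 flags among 48 groups of values, and chance would give 2.4. In the same library Igfbp2 was lowest and Igfbp3 highest of the N libraries. Without it, the log2 difference of EY minus N was -4.37 for Igfbp2, -0.16 for Igfbp3 and -0.41 for Igfbp7.

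The difference from the N line differed between the EY lines for Igfbp2 (limma F, adjusted p = 6.14e-06) and for Ccng2 (limma F, adjusted p = 1.05e-04). For Igfbp2 line EY3960 lay further below N than the other EY lines, and for Ccng2 EY3960 lay above N and EY4174 below it by their means, 8.72 and 1.70 TPM against 2.67 TPM.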

How the results depend on the processing

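Igfbp2 was lower in EY under all 19 alternatives that gave its difference, between -4.62 and -3.54 on the log2 scale (-4.43 to -3.97 when 1 library was left out), and its difference between EY lines passed in all 17, as did that of Ccng2. The number of genes called between EY and N, 413, became 216 with at least 1 TPM required in every library, 221 under a replicate block by sample number, 203 with line as a random block and 2 with the mean of each line, where 3 EY values met 1 N value and Igfbp2 was not called; it was 295 to 444 without 1 library. Under the replicate block Igfbp2 was not called either, and the Igfbp3 difference was -0.11. The pathway genes called, 4, became 1 under the replicate block, 2 without line EY3960, 1 with line as a random block and 0 with line means, and 3 to 4 without 1 library. Txnip was the gene that remained with either block; adjusted limma p over the alternatives ran from 1.24e-06 to 0.0617 for Txnip, 9.98e-05 to 0.317 for Sesn1 and 5.92e-05 to 0.254 for Igf2bp1. Genes called between the EY lines, 596, became 350 with at least 1 TPM in every library, where fewer genes were tested, and were 400 to 716 without 1 library. Same-numbered libraries of different lines did not deviate together (r from -0.20 to 0.05, 0 of 6 over 0.1). With so few libraries in each line, this cannot decide whether the numbers pair libraries. How the numbers were assigned is not given in the sources used here. Apart from the smaller number of genes or samples in some alternatives, the cause was not tested. With depth unknown, values near 0 carry no known counting error.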
